A study of Mus musculus with 17 samples.

Results

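The 41 collagen genes described here are mouse genes for alpha chains of the collagens, from Col1a1 to Col28a1. They were taken as a list of gene symbols, and all 41 were matched by Ensembl ID in a table of 37576 genes for immortalized cells and a table of 33440 genes for Ras-transformed cells. RNA was sequenced from embryonic fibroblasts of C57bl/6 mice (embryonic day 13.5) that carried both copies of Usp28 (+/+), 1 copy (+/-) or none (-/-), and Usp28 is an enzyme that takes ubiquitin off its target proteins. The study's title links this enzyme to Fbw7, a substrate receptor of a ubiquitin ligase, and to oncogenic transformation.

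All cells of all groups had been immortalized with a retrovirus for a short hairpin against p19ARF (pRetroSuper-shp19ARF). The immortalized set has 3 libraries each of +/+, +/- and -/- cells with no further vector. In the Ras set, whose cells also carried activated HRas (pBabe-HRasG12V), each of 4 groups has 2 libraries. Ras +/+, +/- and -/- cells had in addition received pWZL-GFP, and the fourth group was Ras +/+ cells with pWZL-USP28 in its place. The libraries are called biological triplicates and duplicates, but the labels do not say how many embryos or cell lines stand behind a group, so p-values may measure the spread between cultures of 1 line. Only group values were used here, so no spread between the libraries of a group is given for a single gene.

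Collagens are secreted proteins built from 3 alpha chains that wind into a triple helix. Chains are hydroxylated and glycosylated in the endoplasmic reticulum, folded with the help of chaperones such as Serpinh1, trimmed of their propeptides outside the cell and crosslinked by lysyl oxidases. Fibroblasts are the main source of the fibrillar types I, III and V. Fibrillar chains form the striated fibrils of connective tissue, type IV forms the network of basement membranes, type VI forms beaded filaments near cells, and the fibril-associated types (FACIT) decorate fibrils.

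Each group, its libraries summed, held 11.36 to 13.95 M reads (M, 1000000), and 1 read was worth 0.0717 to 0.0880 RPM (reads per 1000000). The deposited transcript level of Usp28 did not separate the genotypes fully: immortalized cells labelled +/+, +/- and -/- held 16.5, 9.96 and 13.3 RPM, and those of the Ras set 26.5, 18.6 and 14.8 RPM. Only the fall in Ras cells labelled -/- passed the test (log2 fold -0.83, SE 0.25, adjusted p = 0.0040). It was 26.4 RPM in the group labelled USP28. The labels are therefore not checked by this gene, and all directions below rest on them. Of 10 fibroblast markers, all 10 reached 1 RPM in each immortalized group and 7 to 9 in the Ras groups, where Thy1 lay at or under 0.502 RPM and Lum was at 0 reads in all but the group labelled -/-. The groups also differ in sex-linked transcripts. The Y-linked gene Eif2s3y was at 18.6 RPM in immortalized +/+, 0 in +/- and 14.9 RPM in -/-, and at 0, 0.151, 22.4 and 0.0745 RPM in Ras +/+, +/-, -/- and USP28 cells. The Y-linked gene Ddx3y was at 38.3, 7.89 and 43.8 RPM in immortalized +/+, +/- and -/- cells. In Ras +/+, +/-, -/- and USP28 cells it was at 10.7, 12.4, 57.5 and 13.3 RPM. Within each set Ddx3y was thus lower, but not absent, where Eif2s3y was at or near 0. Whether the groups held different mixtures of male and female cells was not tested, and genotype and cells of origin cannot be told apart.

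Promoter stretches are shown for 6 genes on which results below turn. They lie before the RefSeq transcription start on build GRCm38.p6 and hold no annotated exon. That of Col4a5 ends 35 bases before the start, and that of Col27a1 lies inside the longer GENCODE gene, which begins at 63214004. Capitals mark short words searched on both strands, namely CCAAT (the box bound by NF-Y), the TATA box word TATAAA, and GGGCGG, a word of GC boxes. The first 3 genes, Col10a1 (chr10:34389861-34389980, plus strand), Col27a1 (chr4:63215292-63215411, plus strand) and Col5a3 (chr9:20815068-20815187, minus strand), were at the level of a few reads in Ras +/+ cells and high in at least 1 other Ras group. Col3a1 (chr1:45311418-45311537, plus strand) differed between the sets. Col4a6 (chrX:141474077-141474196, minus strand) and Col4a5 (chrX:141475265-141475384, plus strand) are neighbours that point away from each other and moved by very different amounts.
Col10a1: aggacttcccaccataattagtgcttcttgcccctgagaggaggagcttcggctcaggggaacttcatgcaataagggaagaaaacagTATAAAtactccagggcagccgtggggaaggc
Col27a1: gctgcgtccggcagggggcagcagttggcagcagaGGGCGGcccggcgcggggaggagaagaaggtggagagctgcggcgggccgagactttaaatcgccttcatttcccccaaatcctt
Col5a3: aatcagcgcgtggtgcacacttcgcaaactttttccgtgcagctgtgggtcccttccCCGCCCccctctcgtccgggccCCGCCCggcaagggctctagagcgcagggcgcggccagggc
Col3a1: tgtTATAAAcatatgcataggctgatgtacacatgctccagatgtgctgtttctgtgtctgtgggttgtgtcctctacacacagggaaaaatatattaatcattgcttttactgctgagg
Col4a6: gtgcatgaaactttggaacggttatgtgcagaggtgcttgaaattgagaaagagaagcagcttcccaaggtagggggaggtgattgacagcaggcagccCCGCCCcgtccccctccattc
Col4a5: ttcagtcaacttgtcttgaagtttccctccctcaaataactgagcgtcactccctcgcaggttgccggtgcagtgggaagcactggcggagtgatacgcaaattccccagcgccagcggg
The word TATAAA begins 32 bases before the start of Col10a1 and 117 bases before that of Col3a1. The word GGGCGG or its reverse complement occurs in the stretches of Col27a1, Col5a3 and Col4a6. Over whole windows of 300 bases, 250 before and 50 from the start on, GGGCGG was present in 19 of the 32 collagen genes with a window (59.4%) and in 35.7% of the 32851 mouse windows. CCAAT was present in 12 of the 32 (37.5%, against 37.4% of all windows) and TATAAA in 5 (15.6%, against 13.6%). No word is contained in another, and a match is a description of the sequence only.

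Collagen transcripts made up 4.54% of reads in immortalized +/+ cells, 3.95% in +/- and 3.47% in -/- cells. They made up 1.29% in Ras +/+, 1.40% in Ras +/-, 1.63% in Ras -/- and 0.968% in USP28 cells. The order of the genotypes was thus opposite in the 2 sets, but these sums were not tested, and levels of the 2 sets were normalized apart. Type I collagen, the pair Col1a1 and Col1a2, held 57.9% to 59.5% of collagen reads in the immortalized set and 47.5% to 60.9% in the Ras set. Of the 41 genes, 32 to 34 reached 1 RPM in an immortalized group and 22 to 27 in a Ras group. In bulk RNA, fewer cells of a type and less RNA per cell cannot be told apart.

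**Figure D1:**
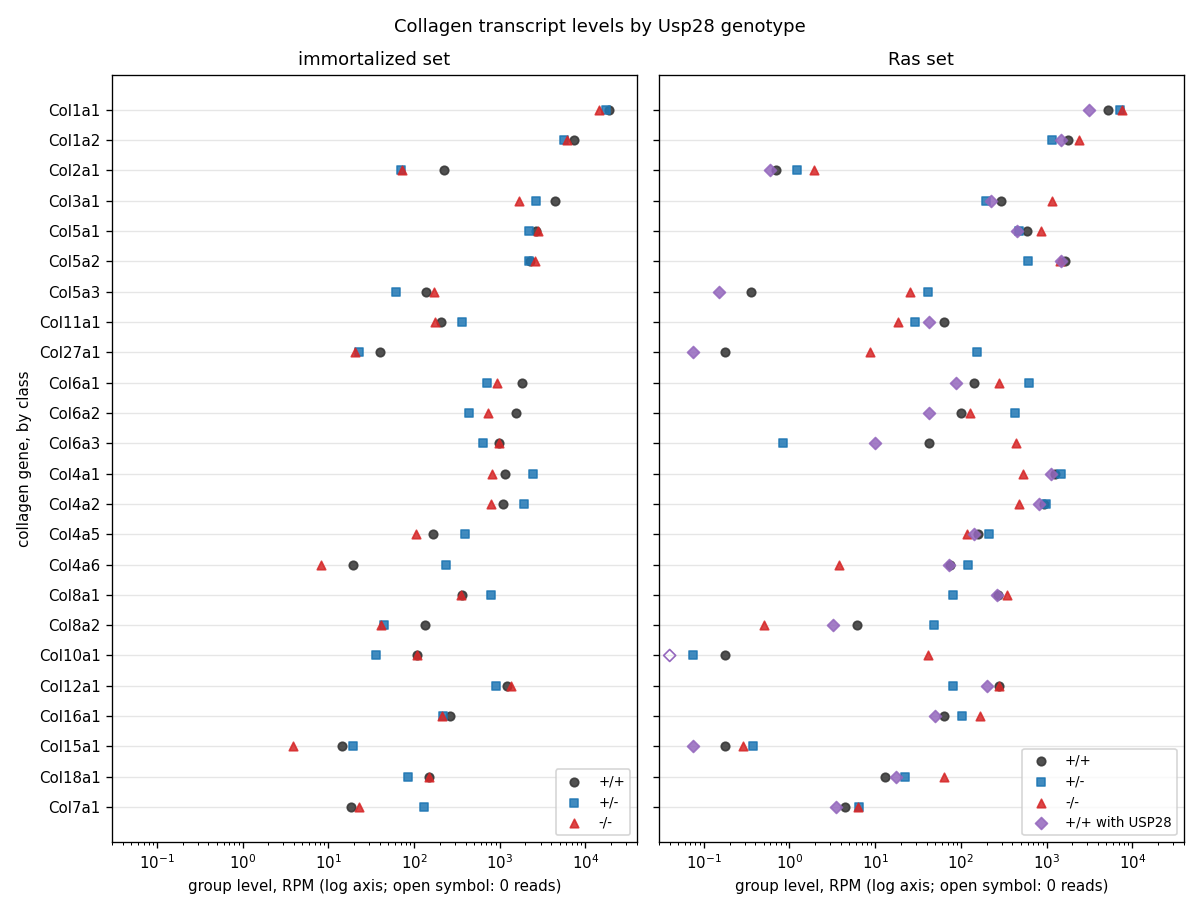
Group levels in RPM (log axis) of the collagen genes that reached 10 RPM in any group, ordered by class, in the immortalized set (left) and the Ras set (right). Each symbol is 1 group, with libraries summed. Col5a3, Col27a1 and Col10a1 span from under 1 RPM to 41.6, 154 and 41.2 RPM in the Ras set.

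Calls rest on the authors' p-values, adjusted over all genes that averaged 1 RPM or more, and a gene with an adjusted p under 0.05 is called. Folds are log2 of a group over +/+, and each standard error (SE) follows from the read counts and 1 dispersion per comparison. A collagen gene, or a gene of the lists below, can pass the level filter through the group where it is high. Counts over tested genes are therefore descriptions. Immortalized -/- cells against +/+ is a comparison of cells without activated HRas, in which genotype and cells of origin cannot be told apart. There, 35 collagen genes were tested and 12 were called, all lower, where 4.21% of 16727 genes were called and 2.93% were lower. Immortalized +/- cells had 13 of 37 called, 5 higher and 8 lower (all genes, 8.25%). In Ras -/- cells 16 of 28 were called, 11 higher and 5 lower (all genes, 27.6%), and in Ras +/- cells 17 of 25, 10 higher and 7 lower (all genes, 34.1%). With USP28, 4 of 22 were called, all lower (all genes, 1.09%). The median log2 fold of the tested members was -0.47, -0.13, 0.53, 0.47 and -0.29 in this order, against 0.07, -0.00, -0.01, 0.01 and 0.01 for all genes. Among genes of at least 5 RPM the share called was 4.09%, 7.07%, 28.1%, 35% and 0.98%. With the dispersion doubled, 6 calls were left in immortalized -/-, which lost Col4a6, Col6a1, Col6a2, Col9a1, Col9a2 and Col27a1, and 7 in immortalized +/-, which lost Col4a5, Col5a3, Col6a1, Col8a1, Col8a2 and Col10a1. USP28 cells kept 2 (Col1a1 and Col6a1 were lost), Ras -/- 14 (Col1a1 and Col5a1 were lost) and Ras +/- 12 (Col1a2, Col3a1, Col4a6, Col16a1 and Col18a1 were lost). The share called over all genes was then 1.7% in immortalized -/- and 4.78% in immortalized +/-. It was 16.7% in Ras -/-, 23% in Ras +/- and 0.816% with USP28. The comparisons of a set share their +/+ libraries, so they are not independent. Of the 10 fibroblast markers, 4 were lower and 0 higher of 10 tested in immortalized -/- (all genes, 4.21%). Immortalized +/- had 1 higher and 2 lower of 10 (8.25%), and with USP28 none of 7 was called (1.09%). Ras -/- had 5 higher and 1 lower of 9 (27.6%), and Ras +/- 2 higher and 3 lower of 8 (34.1%). The part of these markers in the collagen levels was not tested.

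**Figure D2:**
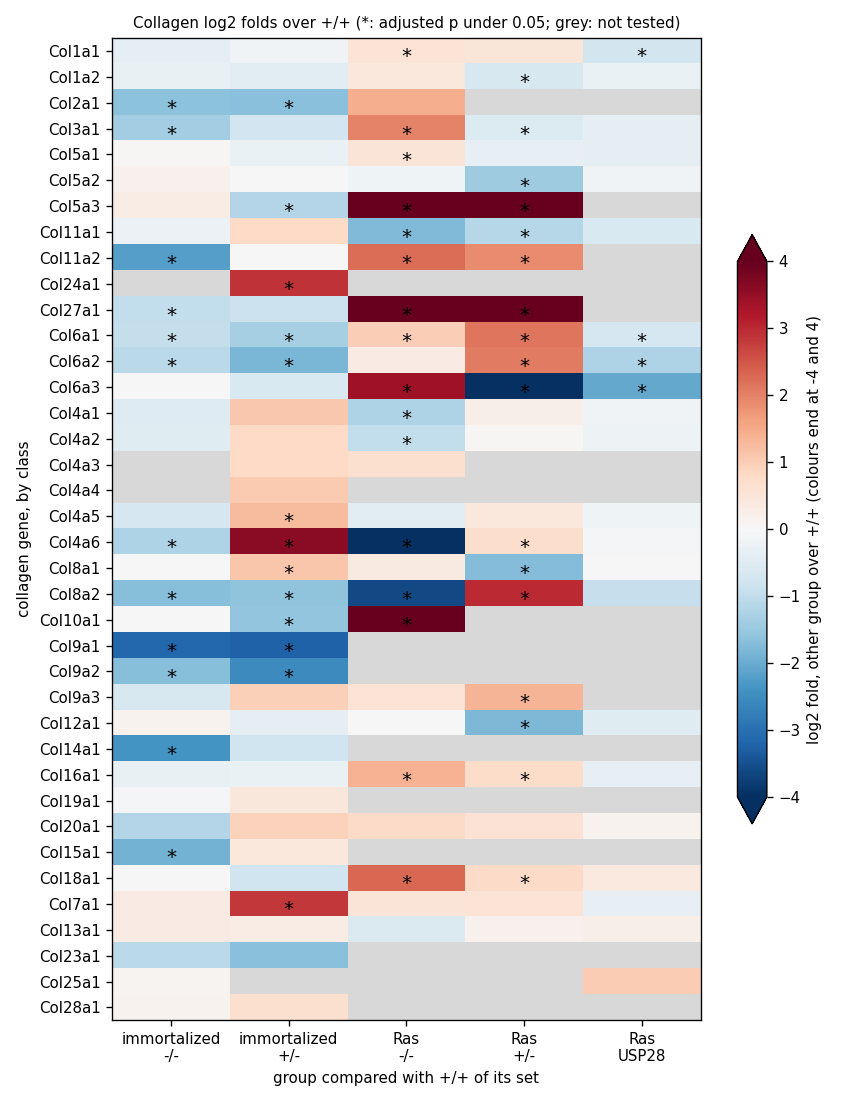
Log2 fold over the +/+ cells of the same set (colour, ending at -4 and 4) for each collagen gene tested in at least 1 of 5 comparisons, with an asterisk where the adjusted p was under 0.05 and grey where the gene was not tested. All 12 asterisks of immortalized -/- and all 4 of USP28 stand on falls.

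Among the fibrillar chains, Col1a1 and Col1a2 encode type I collagen, the bulk protein of bone, skin and tendon. Col1a1 measured 18921 RPM in immortalized +/+, 17267 RPM in +/- and 14627 RPM in -/- cells, and neither group was called against +/+ (log2 folds -0.13 and -0.37). In the Ras set it measured 5149.9 RPM in +/+, 7146 RPM in +/-, 7526 RPM in -/- and 3099 RPM with USP28. The USP28 cells were lowest, and their fall passed the test (-0.73, SE 0.18, adjusted p = 0.00656). The higher level in Ras -/- was called (0.55, SE 0.21, adjusted p = 0.0332), but the adjusted p is 0.0711 in the authors' deposited table. Ras -/- and USP28 cells, tested directly with a Wald test on the 2 ratios, differed by 1.28 (SE 0.28, adjusted p = 5.75e-05). Col1a2 measured 7422, 5569.9 and 6034 RPM in the immortalized groups and 1789, 1158, 2419 and 1495 RPM in Ras +/+, +/-, -/- and USP28 cells. Only its fall in Ras +/- was called (-0.63, SE 0.21, adjusted p = 0.00887). Per kb of transcript, Col1a1 stood 2.19 to 2.80 times above Col1a2 in the immortalized groups, 2.60 times in Ras +/+ and 5.57 times in Ras +/-. The 2 chains of this heterotrimer therefore parted most in Ras +/- cells.

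Col3a1, the single chain of type III collagen in skin and vessel walls, went in opposite directions in the -/- cells of the 2 sets. It measured 4419 RPM in immortalized +/+, 2627 RPM in +/- and 1669 RPM in -/- cells, and its fall in -/- was called (-1.405, SE 0.25, adjusted p = 3.8e-06). In Ras cells it measured 292 RPM in +/+, 199 RPM in +/-, 1145 RPM in -/- and 225 RPM with USP28. The Ras -/- group stood alone at the top (1.97, SE 0.21, adjusted p = 2.1e-18). The difference between the -/- effects of the sets was 3.38 (SE 0.33, adjusted p = 7.46e-23, Wald test). That between the +/- effects was 0.20 (SE 0.44) and was not called. The smaller fall in Ras +/- had an adjusted p of 0.0258 here, but it is 0.0551 in the authors' deposited table. Col3a1 and Col5a2 lie tail to tail on chromosome 1 in GRCm38, 24.614 kb apart (Col3a1 at 45311538 to 45349706, Col5a2 at 45374321 to 45503282). Per kb, Col3a1 stood 2.34 times above Col5a2 in immortalized +/+ and at 0.78 times its level in immortalized -/-.

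Type V collagen sets the diameter of type I fibrils, and its chains did not move alike. Col5a1 measured 2681, 2229 and 2774 RPM in immortalized +/+, +/- and -/- cells and 596, 478, 852 and 457 RPM in Ras +/+, +/-, -/- and USP28 cells. Its single call, a log2 fold of 0.52 in Ras -/- (SE 0.21, adjusted p = 0.0488), is lost in the authors' deposited table, where the adjusted p is 0.104. Col5a2 was level in the immortalized groups at 2248, 2201 and 2558 RPM. Ras +/+, -/- and USP28 cells were close together at 1634, 1446 and 1496 RPM, and Ras +/- cells were lower at 609 RPM (-1.42, SE 0.21, adjusted p = 1.2e-10). Col5a3 measured 139, 61.8 and 169.6 RPM in the immortalized groups, with a called fall in +/- (-1.17, SE 0.39, adjusted p = 0.0355). In Ras +/+ it had 4 reads (0.354 RPM) and with USP28 2 reads (0.149 RPM). It reached 41.6 RPM in Ras +/- (6.88, SE 0.71, adjusted p = 3.1e-54) and 25.6 RPM in Ras -/- (6.18, SE 0.71, adjusted p = 7.1e-40). The Ras groups with both Usp28 copies thus held a few reads, and Ras +/- and -/- held 549 and 357.

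Col27a1, a fibrillar chain with a short helix found in cartilage, had a like gap. It measured 40.6, 22.6 and 20.7 RPM in immortalized +/+, +/- and -/- cells, and the fall in -/- was called (-0.98, SE 0.27, adjusted p = 0.0138). Ras +/+ had 2 reads and USP28 1 read. Ras +/- held 154 RPM, a log2 ratio of 9.78 with a 95% counting interval of 7.92 to 12.82. Ras -/- held 8.82 RPM, a log2 ratio of 5.65 with an interval of 3.76 to 8.71. Ras +/- was thus the highest of all 7 groups for Col27a1, and Ras -/- differed from it by -4.12 (SE 0.32, adjusted p = 2.86e-35, Wald test). These intervals cover counting error only.

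The cartilage chain Col2a1 measured 224 RPM in immortalized +/+, 70.8 RPM in +/- and 71.9 RPM in -/- cells. Both lower groups were called (-1.66, SE 0.39, adjusted p = 0.00054 in +/- and -1.64, SE 0.26, adjusted p = 6.6e-08 in -/-). In the Ras set it lay between 0.596 and 1.94 RPM. Col11a1, a chain that nucleates fibrils, measured 207, 361 and 177 RPM in the immortalized groups with no call. Ras cells held 64.2 RPM in +/+, and the gene fell to 29.3 RPM in +/- (-1.13, SE 0.22, adjusted p = 4.5e-06) and 18.7 RPM in -/- (-1.78, SE 0.23, adjusted p = 9.4e-13), with 42.2 RPM in USP28 cells. Its partner Col11a2 was low, at 1.41 to 6.55 RPM in the immortalized set, with a called fall in -/- (-2.20), and at 0.745 to 4.95 RPM in the Ras set, with called rises in -/- (2.22) and +/- (1.89). Per kb, Col11a1 stood 47.8 times above Col11a2 in Ras +/+ and 2.98 times above it in Ras -/-. Col24a1, the last fibrillar chain, stayed at or under 2.43 RPM and was called only in immortalized +/- (2.90, from 4 to 30 reads). Of 9 chondrocyte markers, 7 were tested in each immortalized comparison, of which 5 were lower in -/- (all genes, 2.93% lower) and 4 in +/- (all genes, 3.21% lower), and none higher. Their summed level was 126 RPM in immortalized +/+, 50.6 RPM in +/- and 53.7 RPM in -/-, with Snorc at 0 reads in all 3 groups and Matn1 and Cnmd also at 0 in -/-. Their part in the fall of Col2a1 was not tested.

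The 4 basement membrane chains above 10 RPM had their highest level in +/- and their lowest in -/- cells of both sets. Col4a1 and Col4a2 form the common type IV trimer, and their genes lie head to head on chromosome 8 with 5′ ends that overlap by 22 bases (GRCm38, Col4a1 at 11198423 to 11312826 on the minus strand, Col4a2 at 11312805 to 11449287 on the plus strand). Col4a1 measured 1146 RPM in immortalized +/+, 2438 RPM in +/- and 809 RPM in -/- cells, with adjusted p of 0.0539 and 0.326 against +/+. Ras cells held 1249, 1475, 530.3 and 1136 RPM in +/+, +/-, -/- and USP28 cells, and its fall in -/- was called (-1.24, SE 0.21, adjusted p = 6.4e-08). Col4a2 ran beside it at 1102, 1915 and 795 RPM in the immortalized groups and 945, 980.4, 474 and 813 RPM in the Ras groups, with a called log2 fold of -0.996 in Ras -/- (SE 0.21, adjusted p = 2.1e-05). The ratio of Col4a1 to Col4a2 per kb stayed between 0.99 and 1.47 in all 7 groups. Where counting is without strand, reads in the 22 shared bases could fall to either gene, which is a small part of transcripts of 6615 and 6450 bases.

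Col4a5 and Col4a6, which join in the basement membranes of smooth muscle and epithelium, also lie head to head, 1.308 kb apart on chromosome X (GRCm38, Col4a6 at 141165403 to 141474076 on the minus strand, Col4a5 at 141475385 to 141689234 on the plus strand). Col4a6 measured 19.3 RPM in immortalized +/+, 234 RPM in +/- and 8.18 RPM in -/- cells. It was called higher in +/- (3.61, SE 0.39, adjusted p = 5.9e-15) and lower in -/- (-1.24, SE 0.31, adjusted p = 0.00308). The Ras groups held 74.8 RPM in +/+, 121 RPM in +/-, 3.80 RPM in -/- and 72.1 RPM with USP28. The fall in Ras -/- was the deepest of any basement membrane chain (-4.30, SE 0.29, adjusted p = 6.2e-50), and the rise in Ras +/- was small (0.69, SE 0.21, adjusted p = 0.00511). Col4a5 measured 166, 396 and 105 RPM in the immortalized groups, with a called rise in +/- (1.26, SE 0.38, adjusted p = 0.0168), and 159.8, 213, 119 and 141 RPM in the Ras groups with no call against +/+. Per kb, Col4a5 stood 1.72 to 2.17 times above Col4a6 in both +/- groups, Ras +/+ and USP28 cells. It stood 8.74 times above it in immortalized +/+, 13.0 times in immortalized -/- and 31.9 times in Ras -/-. Within each set the neighbours thus had the same order of groups with very different spans. Col4a3 and Col4a4, the kidney and lung chains, stayed at or under 1.53 RPM with no call.

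Markers of mesothelium and epithelium, and of smooth muscle, also differed between the groups. Of 12 mesothelial and epithelial markers, 11 were tested in immortalized +/-, with 9 higher and 0 lower (all genes, 8.25% called, 5.04% higher). In Ras +/- 11 were tested, with 10 higher and 1 lower (34.1% called, 17.5% higher). Only 4 of the 12 reached 1 RPM in immortalized +/+ and 2 in Ras +/+, against 11 in either +/- group. Most were thus tested only through the +/- group where they are high, so these counts are descriptions. In Ras -/- 2 were tested and both were lower (27.6%), in immortalized -/- 5 were tested with 1 higher and 2 lower (4.21%), and with USP28 neither of 2 was called. Their summed level was 74.3 RPM in immortalized +/+, 1994 RPM in +/- and 83.5 RPM in -/-, and 498, 3112.5, 8.17 and 553 RPM in Ras +/+, +/-, -/- and USP28 cells. The uroplakin gene Upk3b rose from 0.264 to 677 RPM in Ras +/- (3 reads in +/+), and the mesothelin gene Msln fell from 425 to 5.09 RPM in Ras -/- (-6.38, SE 0.27). Msln was also the 1 lower marker in Ras +/-, at 209 RPM. Only 2 markers reached 1 RPM in Ras +/+ and USP28 cells, Msln (425 and 466 RPM) and Krt19 (71.5 and 85.4 RPM). Of the summed level in immortalized -/- cells, Krt19 held 67.0 RPM and was not called. Upk1b was higher in these cells (0.568 to 3.22 RPM), and Msln (20.9 to 6.62 RPM) and Cdh1 (5.22 to 0.440 RPM) were lower. No marker of the list was at 0 reads in either +/- group or in immortalized -/-. Lrrn4 was at 0 in all other groups, with Epcam in immortalized +/+ and USP28 cells, Krt18 in Ras +/+ and Bnc1 in Ras -/-. Of 6 smooth muscle markers, 3 were higher and 0 lower of 6 tested in immortalized +/- (all genes, 5.04% higher). In immortalized -/- 2 were higher and 0 lower of 6 (all genes, 1.29% higher). In the Ras set 4 of 5 tested were lower in -/- (all genes, 12.4% lower), 4 of 5 in +/- (16.7%) and 1 of 5 with USP28 (0.997%), and none was higher. Their summed level was 6327, 8267 and 6613 RPM in immortalized +/+, +/- and -/- cells and 3920.0, 482, 1950 and 4290 RPM in Ras +/+, +/-, -/- and USP28 cells, with none at 0 reads. The sum of the smooth muscle markers was lowest in Ras +/- cells. The part of either marker list in the levels of Col4a6, Col4a5 and Col7a1 was not tested. The X-linked transcript Xist measured 89.7, 296 and 126 RPM in immortalized +/+, +/- and -/- cells and 335.8, 25.5, 0.215 and 323 RPM in Ras +/+, +/-, -/- and USP28 cells, and its part in the 2 X-linked chains was not tested.

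**Figure D3:**
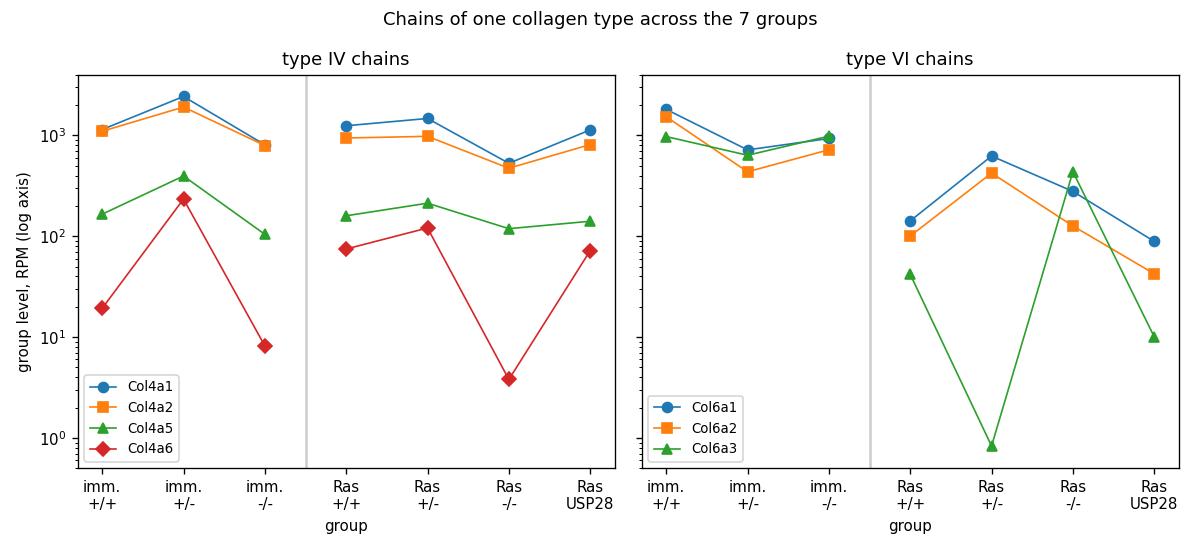
Group levels in RPM (log axis) of the type IV chains (left) and the type VI chains (right) across the 7 groups, with the immortalized set left of the grey line and lines joining the groups of a set. Col4a6 spans from 3.80 to 234 RPM while Col4a1 and Col4a2 run together, and Col6a3 drops to 0.831 RPM in Ras +/- where Col6a1 and Col6a2 are at their Ras maximum.

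Type VI collagen is assembled from Col6a1, Col6a2 and the large chain Col6a3, and its chains parted in Ras +/- cells. Col6a1 measured 1817 RPM in immortalized +/+, 720.1 RPM in +/- and 934 RPM in -/- cells. Both lower groups were called (-1.34, SE 0.38, adjusted p = 0.00873 in +/- and -0.96, SE 0.25, adjusted p = 0.00571 in -/-), and neither call held with the dispersion doubled. Col6a2 went the same way with 1535, 437 and 722 RPM (-1.81, SE 0.38, adjusted p = 0.00010 and -1.09, SE 0.25, adjusted p = 0.00095), where only the call in +/- held with the dispersion doubled. Col6a3 was not called there, at 976, 637 and 985 RPM.

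In the Ras set Col6a1 measured 142 RPM in +/+, 625 RPM in +/-, 279 RPM in -/- and 89.0 RPM with USP28, and all 3 differences from +/+ were called (2.14, 0.97 and -0.67, SE 0.21, 0.21 and 0.19). The last one is lost in the authors' deposited table, where its adjusted p is 0.0791. Col6a2 measured 100.5, 424, 127 and 42.5 RPM in the same groups, with called changes in +/- (2.08, SE 0.21, adjusted p = 2.5e-20) and USP28 cells (-1.24, SE 0.20, adjusted p = 6.8e-08). Col6a3 measured 42.0 RPM in +/+, 0.831 RPM (11 reads) in +/-, 438 RPM in -/- and 10.1 RPM with USP28. It fell by 5.66 in Ras +/- (SE 0.49, adjusted p = 3.3e-53), rose by 3.38 in Ras -/- (SE 0.22, adjusted p = 3.2e-45) and fell by 2.06 with USP28 (SE 0.23, adjusted p = 5.8e-17). Ras -/- and Ras +/- therefore differed by 8.98 in Col6a3 (SE 0.52, adjusted p = 2.15e-64, Wald test). Per kb, Col6a1 stood 8.35 times above Col6a3 in Ras +/+, 1855 times in Ras +/- and 1.57 times in Ras -/-. All 3 type VI genes were among the 4 collagens called lower with USP28. Col6a1 and Col6a2 lie on the same strand of chromosome 10 with 85.161 kb between them, and Col6a3 lies on chromosome 1.

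The short chain collagens form hexagonal lattices, type VIII below endothelium and in the eye and type X in the growth plate. Col8a1 measured 362, 785 and 358 RPM in immortalized +/+, +/- and -/- cells, with a rise in +/- near the threshold (1.12, SE 0.38, adjusted p = 0.0455) that was not called without the level filter. In Ras cells it measured 271, 81.0, 347 and 266 RPM in +/+, +/-, -/- and USP28 cells, and the fall in +/- was called (-1.74, SE 0.21, adjusted p = 1.1e-14). Its partner Col8a2 went the other way in Ras cells, with 6.10 RPM in +/+, 48.7 RPM in +/- (3.00, SE 0.27, adjusted p = 6.7e-27), 0.502 RPM in -/- (-3.60, SE 0.59, adjusted p = 4.4e-12) and 3.20 RPM with USP28. In the immortalized set Col8a2 was at 134 RPM in +/+ and lower in +/- (44.4 RPM, -1.60, SE 0.39) and in -/- (41.6 RPM, -1.69, SE 0.26). Per kb, Col8a1 stood 1.41 times above Col8a2 in Ras +/- and 587 times in Ras -/-.

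Col10a1, the marker chain of hypertrophic cartilage, measured 107 RPM in immortalized +/+, 36.1 RPM in +/- (-1.57, SE 0.39, adjusted p = 0.00133) and 109 RPM in -/- cells. In the Ras set it had 2 reads in +/+, 1 read in +/- and 0 reads with USP28, a count that allows a level of up to 0.224 RPM (3 reads). Ras -/- cells held 41.2 RPM (575 reads), a log2 ratio to +/+ of 7.88 with a 95% counting interval of 6.01 to 10.92. The transcript was thus at the level of single reads in 3 Ras groups and well above it in the fourth.

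The fibril-associated chains differ in abundance by orders of magnitude. Col12a1, a long chain of tendon and ligament, led the class at 1214, 919 and 1349 RPM in the immortalized groups with no call. The Ras levels were 279, 80.6, 281 and 201 RPM in +/+, +/-, -/- and USP28 cells, and only the fall in +/- was called (-1.79, SE 0.21, adjusted p = 1.9e-15). Col16a1 measured 262, 216 and 212 RPM in the immortalized groups and 62.9, 104, 167 and 49.7 RPM in the Ras groups. It was called higher in Ras -/- (1.40, SE 0.22, adjusted p = 2.6e-09) and Ras +/- (0.72, SE 0.22, adjusted p = 0.00392). The cartilage chains Col9a1 and Col9a2 were at 2.33 and 3.74 RPM in immortalized +/+ and were called lower in both other immortalized groups. Col9a1 had 3 reads in either, for log2 ratios of -3.15 in -/- (counting interval -5.52 to -1.47) and -3.24 in +/- (-5.60 to -1.54). Col14a1 fell from 5.14 to 0.973 RPM in immortalized -/- (-2.40), and Col9a3 rose from 1.33 to 3.40 RPM in Ras +/- (1.36). Col19a1, Col20a1 and Col22a1 stayed at or under 7.79 RPM and were not called against +/+.

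Among the multiplexins, whose C-terminal ends release endostatin-like fragments, Col18a1 measured 149 RPM in immortalized +/+, 86.3 RPM in +/- and 148 RPM in -/- cells with no call. The Ras groups differed more, and it rose from 13.2 RPM in +/+ to 22.3 RPM in +/- (0.76, SE 0.25, adjusted p = 0.00792) and 64.4 RPM in -/- (2.29, SE 0.24, adjusted p = 1.9e-19), with 17.3 RPM in USP28 cells. Col15a1 measured 14.3, 19.3 and 3.87 RPM in the immortalized groups, with a called fall in -/- (-1.89, SE 0.35, adjusted p = 5.2e-06), and stayed at or under 0.378 RPM in the Ras set. Col7a1, the chain of the anchoring fibrils that fix epithelium to the tissue below, measured 18.3 RPM in immortalized +/+, 129 RPM in +/- and 23.0 RPM in -/- cells. Its rise in +/- was called (2.82, SE 0.40, adjusted p = 9.8e-10), and it lay at 3.50 to 6.42 RPM in the Ras set with no call. The transmembrane chains Col13a1, Col17a1, Col23a1 and Col25a1 and the chains Col26a1 and Col28a1 stayed at or under 4.62 RPM in every group and were not called against +/+.

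Direct comparisons between the 2 groups other than +/+ used a Wald test on the difference of their ratios. Immortalized -/- against +/- cells had 9 of 33 tested collagens called, 2 higher and 7 lower (all genes, 4.65%). With the dispersion doubled 3 were left, Col4a6, Col7a1 and Col15a1 (all genes, 2.22%). The lower ones included Col4a6 (-4.83, SE 0.48), Col7a1 (-2.49, SE 0.47), Col15a1 (-2.30, SE 0.51), Col4a5 (-1.92, SE 0.46) and Col4a1 (-1.59, SE 0.46), and the higher ones were Col10a1 (1.59, SE 0.46) and Col5a3 (1.46, SE 0.46). Ras -/- against +/- cells had 17 of 27 called, 9 higher and 8 lower (all genes, 24.5%). All 4 basement membrane chains tested were among the lower ones, whereas the fibrillar chains Col3a1 (2.53, SE 0.29), Col5a2 (1.25, SE 0.29), Col1a2 (1.06, SE 0.29) and Col5a1 (0.83, SE 0.29) were higher. Ras -/- against USP28 cells had 19 of 28 called, 14 higher and 5 lower (all genes, 19%). All 3 type VI chains were higher there, by 1.65 (Col6a1, SE 0.28), 1.58 (Col6a2, SE 0.29) and 5.44 (Col6a3, SE 0.30).

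The log2 fold over +/+ was then compared between the sets, as that in Ras cells minus that in immortalized cells. Cells of the same genotype label also differed between the sets in sex-linked transcripts. Eif2s3y was at 18.6 RPM in immortalized +/+ and 0 in Ras +/+, and Xist at 126 RPM in immortalized -/- and 0.215 RPM in Ras -/-. Activated HRas and cells of origin therefore cannot be told apart in these differences. For -/- the difference was called in 17 of 32 collagens, 14 of them with the higher fold in Ras cells (all genes, 20.3%, and 11.3% higher). For +/- it was called in 17 of 34, 9 with the higher and 8 with the lower fold (all genes, 13.1%). The median difference was 1.26 for -/- and 0.07 for +/-, against -0.09 and 0.04 over all genes. For the type VI chains Col6a1 and Col6a2 the difference was positive for both genotypes, at 1.93 and 1.42 for -/- (SE 0.33 each) and 3.47 and 3.89 for +/- (SE 0.44 each). For Col6a3 it was 3.37 for -/- (SE 0.33) and -4.98 for +/- (SE 0.61).

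**Figure D4:**
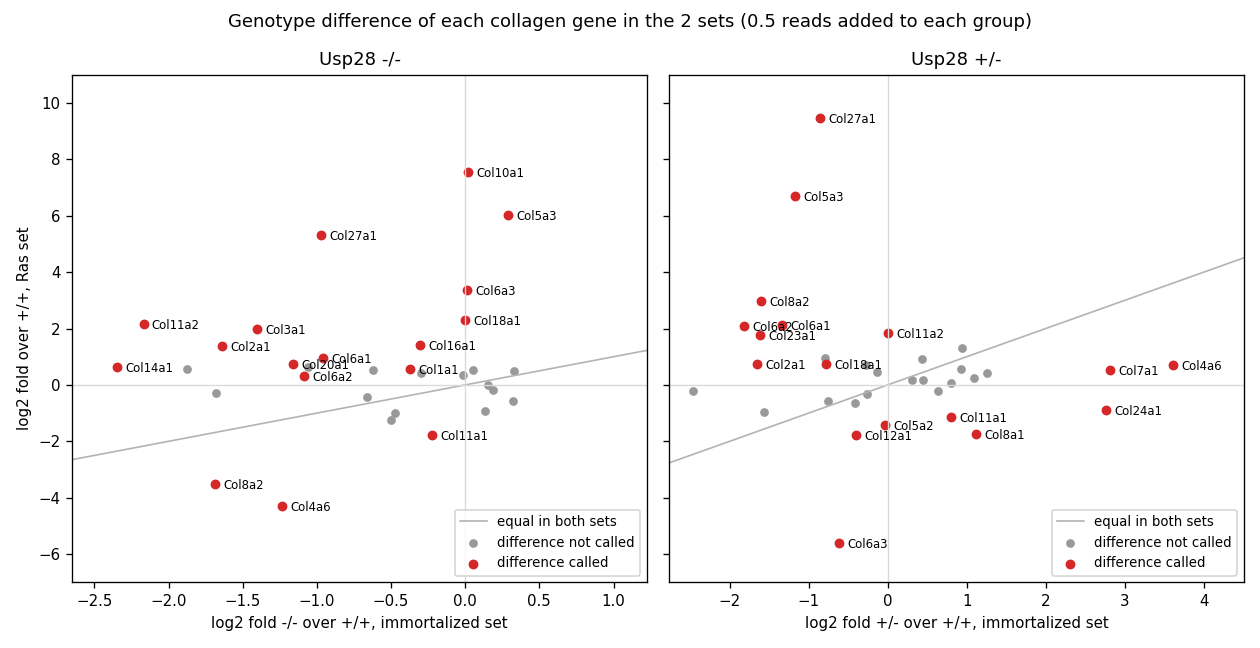
Log2 fold over +/+ of each tested collagen gene in the immortalized set (x axis) and the Ras set (y axis), for -/- (left) and +/- (right), after 0.5 reads were added to each group; the axes have different scales. Red points are the 17 genes of each panel whose difference between the sets was called, and Col10a1, Col5a3 and Col27a1 lie farthest above the line of equal folds in the panel for -/-.

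Genes that make, bind or degrade collagen were grouped in 6 lists. The share called over all genes was 4.21% in immortalized -/-, 8.25% in immortalized +/-, 27.6% in Ras -/-, 34.1% in Ras +/- and 1.09% with USP28, and each list's count is to be read against it. Of 21 genes for chain modification and folding, 19 were tested in each comparison. In immortalized cells 1 was lower in -/- (the prolyl 3-hydroxylase gene P3h2, -1.98) and 1 higher in +/- (the lysyl hydroxylase gene Plod2, from 36.5 to 202 RPM, 2.47, SE 0.39). In Ras -/- 5 were higher and 2 lower (all genes, 27.6%), in Ras +/- 5 and 1 (34.1%), and with USP28 none was called, so these counts lie near the share over all genes. The prolyl 4-hydroxylase gene P4ha2 rose in both, from 23.1 to 101 RPM in -/- (2.12, SE 0.23) and to 67.8 RPM in +/- (1.55, SE 0.23). P4ha3 went from 4.29 to 32.9 RPM in Ras +/- (2.94, SE 0.30) and to 1.72 RPM in Ras -/- (-1.32, SE 0.42). 

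Of 10 genes for propeptide cleavage, 8 were tested in all but the USP28 comparison, which had 7. Immortalized -/- had 1 higher and 3 lower (all genes, 4.21%), among them the procollagen peptidase Adamts2 (159 to 51.9 RPM, -1.62, SE 0.26) and the enhancer Pcolce (1522 to 648 RPM, -1.23, SE 0.25). Immortalized +/- had 1 higher and 2 lower (8.25%). Ras -/- had 5 higher and none lower (27.6%, and 15.2% higher), with Adamts2 at 12.3 to 73.2 RPM (2.58, SE 0.25), and Ras +/- had 3 higher and 1 lower (34.1%). USP28 cells had 1 lower, Adamts2 at 12.3 to 4.47 RPM (-1.46, SE 0.29, adjusted p = 5.7e-05). All 5 lysyl oxidase genes were tested. Loxl2 rose in immortalized +/- (172 to 1368 RPM, 2.99, SE 0.38) and in Ras +/- (4.02 to 236 RPM, 5.88, SE 0.30), and fell in Ras -/- (-1.72, SE 0.46). In all, 1 lysyl oxidase was higher in immortalized +/- (all genes, 8.25%) and none was called in immortalized -/- or with USP28. Ras -/- had 2 higher and 1 lower (all genes, 27.6%), and Ras +/- had 2 higher and 3 lower (34.1%).

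Of 9 partners of collagen fibrils, all tested in both immortalized comparisons, 6 were lower and none higher in -/- (all genes, 4.21%), and 4 were lower and 1 higher in +/- (8.25%). Periostin (Postn) measured 1345 RPM in +/+, 138 RPM in +/- (-3.28, SE 0.38) and 260.0 RPM in -/- cells (-2.37, SE 0.25). In Ras -/- 6 of 9 tested were higher and none lower (27.6%), with Postn from 0.529 to 300.4 RPM (9.15, SE 0.60) and decorin (Dcn) from 0.354 to 99.8 RPM (8.14, SE 0.71). Ras +/- had 3 of 6 higher (34.1%), with Dcn at 118 RPM, and USP28 cells had 1 of 5 lower (1.09%), fibromodulin (Fmod, -2.42, SE 0.44). Of 10 receptor and uptake genes, 8 were tested in each immortalized comparison, with 1 lower in -/- (all genes, 4.21%) and none called in +/-, and 7 with USP28, with none called. In Ras -/- 1 of 7 was lower (27.6%). In Ras +/- 1 of 6 was higher and 2 lower (34.1%), and the collagen receptor kinases parted (Ddr1 1.06 and Ddr2 -1.02, SE 0.21 each). Of 7 collagen-degrading enzymes, 5 were tested in each immortalized comparison, with 2 lower in -/- (all genes, 4.21%) and 1 higher and 1 lower in +/- (8.25%). Ras -/- had 2 higher and 1 lower of 4 (27.6%), Ras +/- 2 and 2 of 4 (34.1%), and USP28 cells none of 3. The gelatinase Mmp2 fell from 1091 to 512 RPM in immortalized -/- (-1.09, SE 0.25) and rose from 181 to 739 RPM in Ras -/- (2.03, SE 0.21).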

How the data were processed

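Poly(A) RNA of 17 libraries in 7 groups was sequenced on a Genome Analyzer IIx. The labels name 2 library kits without saying which library had which. Per the submitters' processing notes, the authors used CASAVA, FastQC, Bowtie 0.12.8 with build mm9, and edgeR. Per the file headers, the authors deposited for each comparison with +/+ a log2 concentration, a log2 ratio of +/+ to the second group, and a p-value, with an adjusted p-value in the Ras table. After 35 and 24 repeated lines were dropped, RPM levels of both groups were rebuilt from these, and every ratio was inverted to put +/+ below. Low levels lie on steps of 1 read, which gave the summed depth: of the levels below 20 reads, 81.0% to 100% came within 0.1 of a whole read. One common dispersion per comparison was fitted to the deposited p-values (coefficient of variation 12.7% to 32.5%), so standard errors are implied by it and not measured per gene.

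Deposited p-values of genes averaging 1 RPM or more were adjusted with the Benjamini-Hochberg procedure. Differences of 2 ratios had an approximate Wald test after 0.5 reads were added. Within a set, either group took the summed dispersion of its 2 comparisons. These steps were tested on simulated data with independent libraries and the same 1 dispersion per comparison. That test cannot show how calls hold where dispersion differs between genes or libraries come from 1 line. Full values are given for called members of at least 10 RPM (up to 12 a comparison, by size of fold) and the highest uncalled member of a class, and up to 3 called genes of a list are named. Members and lists were chosen with earlier results of these data known. Strand setting and counting rule are not given in the sources used here. Gene coordinates and lengths come from GENCODE vM21 (GRCm38), not the authors' build, and promoter windows from RefSeq (GRCm38.p6). Python 3.11.15, numpy 2.4.6, pandas 2.3.3 and scipy 1.17.1 were used.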

Additional observations from a re-analysis of the deposited data

Results flagged for a closer look

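The log2 fold over +/+ differed between the immortalized and the Ras set for 17 of 32 tested collagens in -/- cells (all genes, 20.3%). In +/- cells it differed for 17 of 34 (all genes, 13.1%). Each value is the log2 fold over +/+ in Ras cells minus that in immortalized cells, and each passed the Wald test of that difference at an adjusted p under 0.05. The sets share no libraries, and activated HRas and cells of origin cannot be told apart in these differences.

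For -/-, the fibrillar chains had differences of 0.92 (Col1a1), 3.03 (Col2a1), 3.38 (Col3a1), 5.72 (Col5a3), 4.34 (Col11a2), 6.31 (Col27a1) and -1.55 (Col11a1). Type VI had 1.93 (Col6a1), 1.42 (Col6a2) and 3.37 (Col6a3). Short chain and basement membrane genes had 7.54 (Col10a1), -1.83 (Col8a2) and -3.05 (Col4a6). The rest were Col14a1 (2.99), Col16a1 (1.71), Col20a1 (1.90) and Col18a1 (2.29).

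For +/-, the fibrillar chains had differences of 2.39 (Col2a1), -1.39 (Col5a2), 7.88 (Col5a3), -1.93 (Col11a1), 1.84 (Col11a2), -3.63 (Col24a1) and 10.31 (Col27a1). Type VI had 3.47 (Col6a1), 3.89 (Col6a2) and -4.98 (Col6a3). Type VIII had -2.86 (Col8a1) and 4.58 (Col8a2), so its chains went opposite ways. The rest were Col4a6 (-2.91), Col7a1 (-2.27), Col12a1 (-1.39), Col18a1 (1.54) and Col23a1 (3.37). Several of these differences rest on few reads, so their sizes depend on the 0.5 reads added. In Ras +/+ cells Col10a1 and Col27a1 had 2 reads, Col5a3 and Col23a1 4, Col14a1 6 and Col2a1 8. Col8a2 had 7 reads in Ras -/-, and Col24a1 had 4 in immortalized +/+. Col14a1 for -/-, and Col2a1, Col23a1 and Col24a1 for +/-, averaged under 1 RPM in the Ras comparison. They passed the level filter only through the immortalized set.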

How the results depend on the processing

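With the dispersion doubled, 6 collagens were called in immortalized -/-, 7 in immortalized +/-, 2 with USP28 and 3 in immortalized -/- against +/-, in place of 12, 13, 4 and 9. Over all genes the shares called at this setting were 1.7%, 4.78%, 0.816% and 2.22%. The other counts fell to 14 of 16 in Ras -/-, 12 of 17 in Ras +/-, 13 of 17 in Ras -/- against +/-, 15 of 19 in Ras -/- against USP28, and 14 and 12 of 17 for the set differences of -/- and +/-. Over all genes the shares were 16.7%, 23%, 15.1%, 11.2%, 11.2% and 6.93% in this order. In all, doubling ended 21 calls against +/+ and 22 calls of differences. Ras -/- against +/- lost Col1a2, Col4a2, Col4a5 and Col5a1, and Ras -/- against USP28 lost Col2a1, Col4a2, Col5a1 and Col9a3. The set differences lost Col1a1, Col8a2 and Col20a1 for -/- and Col2a1, Col5a2, Col11a2, Col12a1 and Col18a1 for +/-. No other alternative moved a count of called collagens by over 1.5 times. Only centring and the number of added reads change a fold, and no direction reversed under these. The other alternatives leave folds as they are, so they cannot show whether a direction holds. Of single results, 26 lost their call at an adjusted p under 0.01, 6 without the level filter, 4 by the authors' own adjusted p, 2 with 2 reads added, 1 at a minimum of 5 RPM, and none with folds centred on the median gene. Calls of genes averaging under 5 RPM were not tested at that minimum and are not counted as lost. Among these were Col9a1, Col9a2, Col11a2 and Col14a1 in immortalized -/-. Rebuilding p from the fitted dispersion was added after seeing the data and ended 1 call, Col5a1 in Ras -/-. No paired analysis was possible because the tables used here hold group comparisons and no values of single libraries. For the same reason, leaving out each replicate was not run, and whether 1 library decides a value is unknown. Levels of a few reads, as in Ras +/+ for Col5a3, Col10a1 and Col27a1, limit the precision of their folds.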
